A study of Mus musculus with 11 samples.

Results

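The genes described here are 38 genes of stratified squamous epithelium, the cell layer that lines the mouse forestomach. They comprise keratins, desmosome genes, cornified-envelope genes and surface proteins, and they were taken from a list of names and matched to probe sets that name a single gene. Of the 38 genes, 37 were measured among 22180 genes in all. Krt5, a basal keratin gene, had a probe set only in common with Krt6a and is not among the 37. Where a gene had several probe sets, the one brightest on average in whole stomach was used, and every level below is a log2 expression value.

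Total RNA of adult C57Bl/6 mouse stomach was hybridised to 11 Affymetrix arrays, 9 of whole stomach and 2 of separated stomach cells. Tamoxifen, which binds oestrogen receptors, was given at 5 mg per 20 g of body weight over 3 days (2 arrays). Rapamycin, an inhibitor of the kinase complex mTORC1, was given at 0.6 mg per 20 g over 10 days (3 arrays), and a further group received both drugs on those schedules (2 arrays, the combination). Vehicle mice received sunflower oil (2 arrays), and all treatments were daily injections into the peritoneum. The 2 arrays of separated cells held isolated parietal cells (1 array) and the remaining cells of the stomach (1 array). The sources used here do not say whether the forestomach was kept in each sample, or whether each array is 1 mouse. P-values below measure the spread between these arrays.

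The mouse stomach joins a glandular part, with parietal, chief and mucous cells, to a forestomach whose lining resembles epidermis. Squamous cells divide in a basal layer marked by Krt5, Krt14 and the transcription factor Trp63. As they move up they change keratins, strengthen their desmosomes and finally build a cornified envelope, a protein shell in which transglutaminases crosslink loricrin, involucrin and small proline-rich proteins.

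Arrays of the same drug group differed widely in these genes. The mean of 20 other squamous genes, none of them among the 37 and called the squamous index below, was 7.69 and 4.84 with tamoxifen, 7.86, 6.84 and 4.96 with rapamycin, 7.38 and 7.53 with both drugs, and 5.13 and 4.87 with vehicle. The index was thus low in tamoxifen 2, in rapamycin 3 and in both vehicle arrays, and higher in the other 5. The mean of the 37 genes ran the same way, at 9.19 and 5.87 with tamoxifen, 9.20, 8.13 and 6.20 with rapamycin, 8.63 and 8.78 with both drugs, and 5.98 and 5.77 with vehicle. The 20 index genes did not all vary alike, with spreads over the 9 arrays from 0.63 (Bnc1) to 6.92 (Rptn). Fgfbp1 was highest in vehicle 2, at 9.87, and did not follow the index. Glandular genes were high on all 9 arrays, where the mean of 10 of them lay between 12.43 and 13.33. In bulk tissue, fewer squamous cells and less RNA per squamous cell cannot be told apart.

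**Figure D1:**
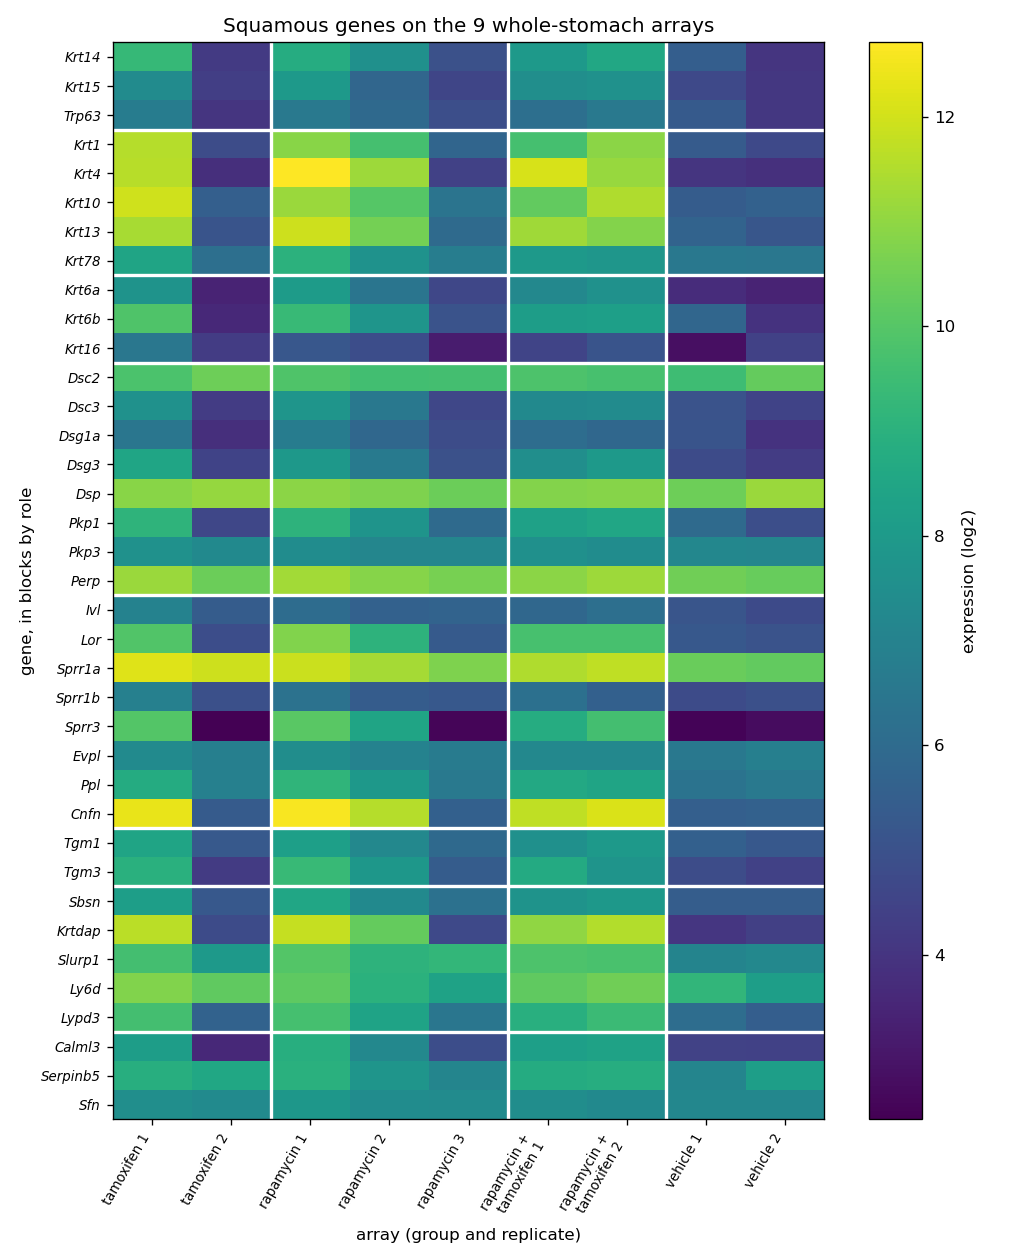
Expression (log2, colour) of the 37 squamous genes (rows, in blocks by role) on the 9 whole-stomach arrays (columns, by group and replicate). Tamoxifen 2, rapamycin 3, vehicle 1 and vehicle 2 are dark in most rows, while rows such as Dsp, Perp and Sprr1a are bright in every column.

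Vehicle 2 and tamoxifen 2 stood apart from the other arrays. They held exactly the same value in 7093 of 41345 probe sets (17.2%), against at most 58 in any other pair of whole-stomach arrays. Both lay above the other 7 arrays in 20.1% of all genes and below them in 16.7%. Among the 37 genes, Dsc2 and Dsp lay above in both and 19 lay below. The probe sets of Sprr1b and Evpl were among those with equal values. The labels name no batch, and the part of this pairing in the results was not tested beyond the values given with and without these arrays.

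Genes of the basal layer followed the squamous index. Trp63, whose protein maintains the basal layer, was measured at 6.73 and 4.0 with tamoxifen, 6.59, 5.95 and 4.91 with rapamycin, 6.20 and 6.58 with both drugs, and 5.36 and 4.08 with vehicle. The high and low arrays of each drug group were those of the index, and the tamoxifen and vehicle groups overlapped. Krt14 and Krt15, keratins of the same layer, differed between tamoxifen 1 and tamoxifen 2 by 5.16 and 3.05, and between rapamycin 1 and rapamycin 3 by 3.79 and 3.43.

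Suprabasal keratins showed larger differences. Krt13, a keratin of wet squamous linings, stood at 11.36 and 5.12 with tamoxifen, 11.93, 10.58 and 5.99 with rapamycin, 11.26 and 10.82 with both drugs, and 5.71 and 5.17 with vehicle. Krt1, a keratin of cornifying epithelium, had 11.57 and 4.80 with tamoxifen, 10.87, 9.68 and 5.77 with rapamycin, 9.67 and 10.92 with both drugs, and 5.37 and 4.71 with vehicle. Tamoxifen 2 was below both vehicle arrays for Krt13 and between them for Krt1, and tamoxifen 1 was far above them for both genes. Krt4, the partner of Krt13, had the largest spread of the 37 genes over the 9 arrays, 8.91, and Krt10, the partner of Krt1, spread over 6.52. Krt78 spread over 2.84.

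The keratin pairs did not run in the same order among arrays of high index. Tamoxifen 1 was above rapamycin 1 by 0.70 for Krt1 and 0.80 for Krt10, and differed from it by -1.12 for Krt4 and -0.58 for Krt13. Combination 2 was above combination 1 by 1.24 for both Krt1 and Krt10, and differed from it by -0.97 for Krt4 and -0.45 for Krt13. These are differences between single arrays, chosen after their values were seen, and no test was made of them.

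The wound keratins Krt6a, Krt6b and Krt16 rise in injured or fast-dividing squamous epithelium. Krt6a was at 7.71 and 3.45 with tamoxifen, 8.06, 6.44 and 4.62 with rapamycin, 7.21 and 7.64 with both drugs, and 3.74 and 3.44 with vehicle. All 3 rapamycin arrays lay above both vehicle arrays, the lowest by less than 1 log2 unit. Krt6b differed between tamoxifen 1 and tamoxifen 2 by 6.29 and Krt16 by 2.24. With the index held, Krt6a differed between rapamycin and vehicle by 0.73 ± 0.26 (limma standard error, adjusted p = 0.987).

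Desmosome genes fell into a squamous set and a set present in all arrays. Dsg3, a desmosomal cadherin of basal squamous cells, had 8.47 and 4.51 with tamoxifen, 7.91, 6.61 and 5.00 with rapamycin, 7.52 and 7.97 with both drugs, and 4.79 and 4.26 with vehicle. Dsc3, Dsg1a and Pkp1 behaved alike, with differences between tamoxifen 1 and tamoxifen 2 of 3.38, 2.66 and 4.47. Dsp, the plakin that ties desmosomes to keratin in many epithelia, was at 10.87 and 11.09 with tamoxifen, 10.93, 10.73 and 10.42 with rapamycin, 10.81 and 10.83 with both drugs, and 10.43 and 11.15 with vehicle. Its highest levels were those of vehicle 2 and tamoxifen 2, the arrays that share many values, and no drug group was separate from vehicle. Dsc2, the cadherin of simple epithelia, was likewise highest in those arrays, at 10.45 in tamoxifen 2 and 10.30 in vehicle 2, while Pkp3 spread over only 0.52 and Perp, a tetraspan desmosome protein gene, over 0.96.

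Among envelope precursors, Sprr3 and Lor were high on the 5 arrays of high index and low on the other 4. Sprr3, a small proline-rich protein of wet squamous linings, stood at 9.97 and 2.43 with tamoxifen, 10.09, 8.43 and 2.59 with rapamycin, 8.81 and 9.65 with both drugs, and 2.52 and 2.78 with vehicle. Loricrin, encoded by Lor, had 9.92 and 4.85 with tamoxifen, 10.76, 9.08 and 5.35 with rapamycin, 9.70 and 9.71 with both drugs, and 5.28 and 5.06 with vehicle. Tamoxifen 2 was below both vehicle arrays in each of these genes. Cnfn, an envelope protein gene, spread over 7.22, whereas the plakin genes Ppl and Evpl spread over 2.82 and 0.94.

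Both crosslinking enzymes and 3 of the 5 secreted and surface members, Krtdap, Sbsn and Lypd3, varied in the same way. Tgm1, the membrane transglutaminase, had 8.42 and 5.30 with tamoxifen, 8.22, 7.21 and 5.95 with rapamycin, 7.57 and 7.99 with both drugs, and 5.60 and 5.26 with vehicle. Tgm3, which crosslinks soluble precursors, had 8.95 and 4.20 with tamoxifen, 9.35, 7.88 and 5.41 with rapamycin, 8.71 and 7.74 with both drugs, and 4.80 and 4.40 with vehicle. Rapamycin 3 lay above both vehicle arrays for each enzyme, and tamoxifen 2 did so for neither. Krtdap, a secreted differentiation peptide gene, had 11.66 and 4.78 with tamoxifen, 11.79, 10.30 and 4.71 with rapamycin, 11.02 and 11.54 with both drugs, and 4.07 and 4.38 with vehicle. Sbsn and Lypd3 differed between tamoxifen 1 and tamoxifen 2 by 2.95 and 3.98, and the calmodulin-like gene Calml3 by 4.53.

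Arrays of one drug show how far a member moved while the drug was the same. A difference of at least 1 log2 unit, a limit set after the values were seen, was found between tamoxifen 1 and tamoxifen 2 in 28 of 37 genes, against 2.25% of all genes. It was found between rapamycin 1 and rapamycin 3 in 29 of 37, against 1.38% of all genes, and between rapamycin 1 and rapamycin 2 in 24 of 37, against 0.942%. In both of the first 2 pairs it was found for 26 genes, and the share of all genes with both was not counted. These 2 pairs set the highest index of each drug group against the lowest (7.69 and 4.84, 7.86 and 4.96). The division into 26 and 11 genes thus rests on arrays of unlike index. Over all 37 genes the median differences were 3.05 (tamoxifen) and 2.59 (rapamycin), beside -0.06 and -0.01 over all genes. Just inside the limit was Sprr1b, with 1.96 and 1.04, and just outside it were Perp, with 0.77 and 0.69, and Slurp1, with 1.71 and 0.70. The other 11 genes were Dsc2, Dsp, Pkp3, Perp, Ivl, Sprr1a, Evpl, Slurp1, Ly6d, Serpinb5 and Sfn.

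**Figure D2:**
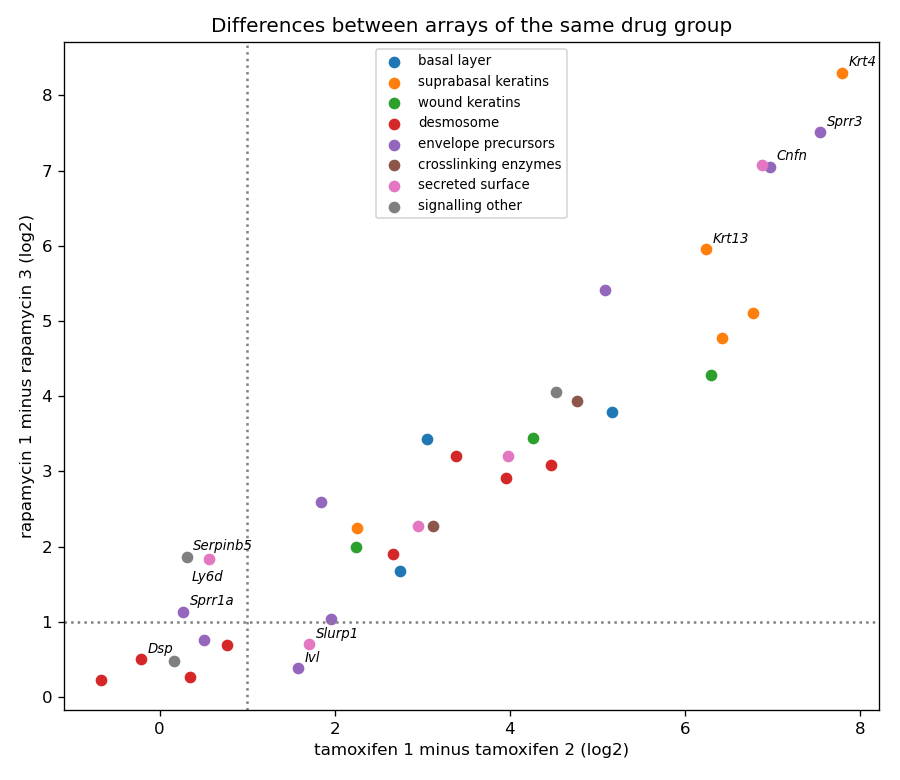
Difference between tamoxifen 1 and tamoxifen 2 (x axis, log2) and between rapamycin 1 and rapamycin 3 (y axis, log2) for each of the 37 genes, coloured by role, with dotted lines at 1. The 26 genes at the upper right reach 7.79 and 8.30 (Krt4), and the 11 others lie left of or below a line.

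The first drug comparison set tamoxifen alone against vehicle. Sprr1a, a small proline-rich precursor of the envelope that is also induced by stress in other tissues, rose by 1.77 ± 0.31 (limma, adjusted p = 0.0288). It was at 12.21 and 11.94 with tamoxifen, 11.87, 11.31 and 10.74 with rapamycin, 11.49 and 11.71 with both drugs, and 10.36 and 10.26 with vehicle. Both tamoxifen arrays were above every other array, although the index was 7.69 in one and 4.84 in the other. Of the 37 genes, 1 was called, against 1.72% of all genes, and 4 had an unadjusted p under 0.05, against 10.9% of all genes. The median difference of the 37 genes was 1.47, beside -0.02 over all genes. The 2 tamoxifen arrays did not overlap with vehicle for 9 genes, all higher with tamoxifen, against 13.4% of all genes in that direction, and for 0 genes in the lower direction, against 13.9%. These were Sprr1a, Ivl, Ppl, Krtdap, Slurp1, Ly6d, Serpinb5, Pkp3 and Sfn.

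With the squamous index held as a covariate in limma, the median difference of the 37 genes was 0.19 between tamoxifen and vehicle. Sprr1a rose by 1.46 ± 0.22 (adjusted p = 0.0278), and again 1 of 37 genes was called, against 0.951% of all genes. Between the arrays numbered 2, which stood apart from the rest, Sprr1a was higher with tamoxifen by 1.68, and between those numbered 1 by 1.85. The call of Sprr1a in limma was lost on leaving out vehicle 1, vehicle 2, tamoxifen 1, tamoxifen 2, rapamycin 2 or either combination array, with an adjusted p of up to 0.105. With the index held the rise was 0.88 without tamoxifen 2 (adjusted p = 0.707), so its size there rested on that array.

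Ly6d, a surface protein gene of squamous epithelium, had 10.77 and 10.21 with tamoxifen, 10.17, 8.99 and 8.34 with rapamycin, 10.21 and 10.48 with both drugs, and 9.21 and 8.20 with vehicle. It was higher on both tamoxifen arrays than on either vehicle array, and its difference with the index held was 1.26 ± 0.39 (limma, adjusted p = 0.237). Ivl, which encodes involucrin, the scaffold of the envelope, had 6.98 and 5.41 with tamoxifen, 6.07, 5.64 and 5.69 with rapamycin, 5.87 and 6.17 with both drugs, and 5.16 and 4.75 with vehicle. Every drug-treated array was above both vehicle arrays for Ivl. No difference of Ivl was called in the main fits, with or without the index, though it was called under some of the alternatives given at the end.

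Sprr1a lies in a cluster of envelope genes on chromosome 3, beside Sprr1b, Sprr3 and Ivl, and the 4 behaved differently. Sprr1b was at 6.90 and 4.94 with tamoxifen, 6.32, 5.42 and 5.28 with rapamycin, 6.22 and 5.58 with both drugs, and 4.78 and 4.94 with vehicle. For Sprr1a, tamoxifen 2 exceeded vehicle 2 by 1.68. The probe set of Sprr1b was one of the 7093 with exactly equal values in those 2 arrays. Its equality, of unknown origin, thus cannot be read as a lack of drug response. To show how the neighbours differ in sequence, the 250 bases before each start are printed from RefSeq (GRCm38.p6). They run 5′ to 3′ on the strand of the gene, with capitals at each TGANTCA, where N is any base. That pattern reads the same on both strands and is broader than TGACTCA and TGAGTCA, the recognition sequences of AP-1 transcription factors. The windows are chr3:92485882-92486131 (Sprr1a), chr3:92438780-92439029 (Sprr1b), chr3:92458721-92458970 (Sprr3) and chr3:92573736-92573985 (Ivl), all on the minus strand.
Sprr1a: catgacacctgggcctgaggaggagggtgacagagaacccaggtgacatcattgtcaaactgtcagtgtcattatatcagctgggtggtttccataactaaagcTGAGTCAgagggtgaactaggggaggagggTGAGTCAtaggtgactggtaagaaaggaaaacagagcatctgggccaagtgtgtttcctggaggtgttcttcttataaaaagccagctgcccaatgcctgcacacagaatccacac
Sprr1b: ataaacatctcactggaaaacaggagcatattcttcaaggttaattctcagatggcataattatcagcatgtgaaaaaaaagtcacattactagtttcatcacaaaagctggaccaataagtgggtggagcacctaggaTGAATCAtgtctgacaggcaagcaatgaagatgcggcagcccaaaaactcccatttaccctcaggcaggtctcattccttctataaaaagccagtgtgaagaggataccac
Sprr3: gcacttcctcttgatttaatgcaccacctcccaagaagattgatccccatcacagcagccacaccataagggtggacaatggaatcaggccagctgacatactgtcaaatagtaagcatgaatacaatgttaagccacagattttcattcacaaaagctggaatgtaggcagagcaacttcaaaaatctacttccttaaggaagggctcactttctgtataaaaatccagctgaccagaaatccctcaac
Ivl: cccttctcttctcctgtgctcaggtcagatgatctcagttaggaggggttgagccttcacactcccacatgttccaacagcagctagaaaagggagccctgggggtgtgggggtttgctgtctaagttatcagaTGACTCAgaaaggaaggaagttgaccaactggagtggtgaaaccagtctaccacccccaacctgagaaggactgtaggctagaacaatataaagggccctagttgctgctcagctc
Sprr1a has 2 matches, starting 146 and 116 bases before the start, Sprr1b has 1 at 111 and Ivl 1 at 116, and the Sprr3 window has none. The matches of Sprr1a are TGAGTCA and that of Ivl is TGACTCA, while that of Sprr1b is TGAATCA. Any middle base was counted as a match. A match was present in 6.75% of all 32851 promoter windows of this length and in 8 of the 19 listed genes with a window in the table. A match is a stretch of letters and not a measured site.

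**Figure D3:**
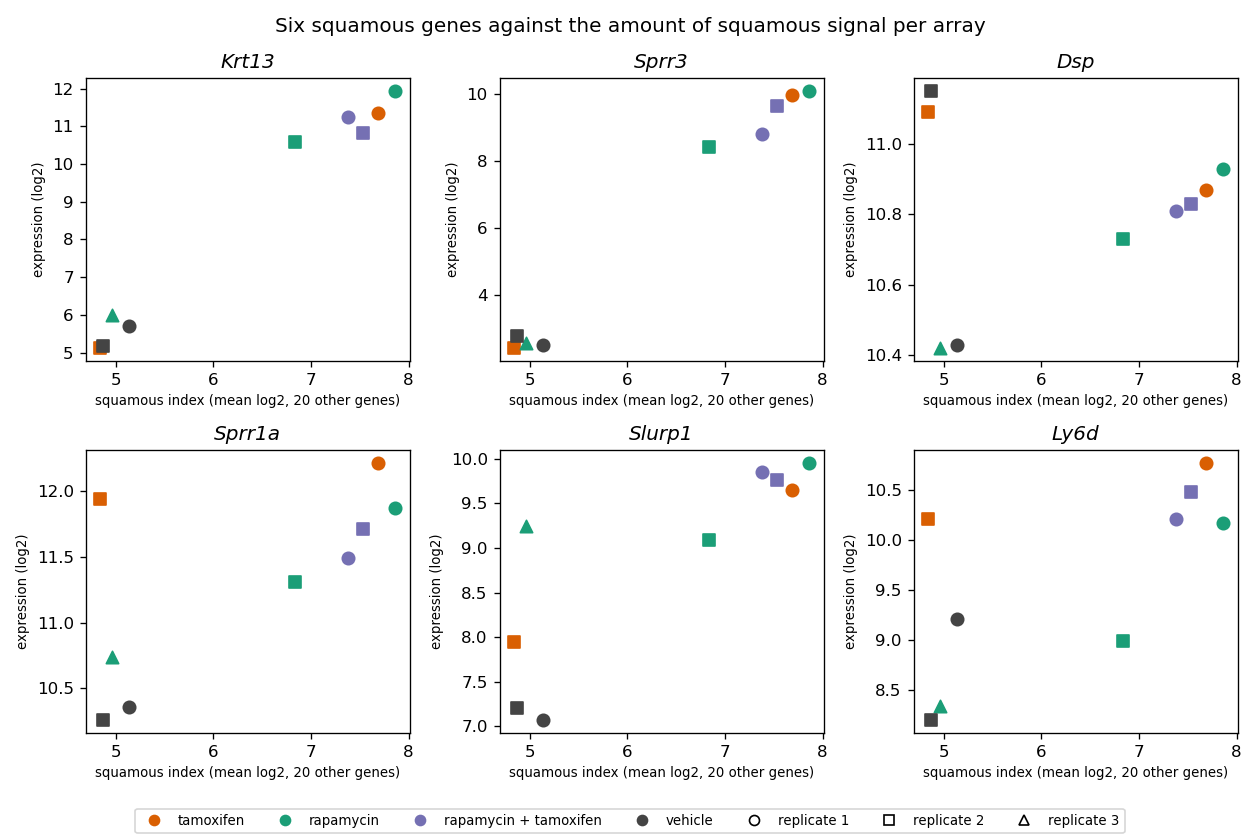
Expression (log2, y axes) of Krt13, Sprr3, Dsp, Sprr1a, Slurp1 and Ly6d against the squamous index of the array (x axes, mean log2 of 20 other squamous genes). Colours are groups and symbols are replicates. Krt13 and Sprr3 separate along the index, Sprr1a and Ly6d are high in tamoxifen 2 (11.94 and 10.21) at an index of 4.84, and Slurp1 is high in rapamycin 3 (9.25) at an index of 4.96.

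The next comparison set rapamycin alone against vehicle. None of the 37 genes was called by limma (0.0496% of all genes were), with 4 at an unadjusted p under 0.05, against 8.91% of all genes. The 3 rapamycin arrays did not overlap with vehicle for 20 genes, all higher with rapamycin, against 12.7% of all genes in that direction, and for 0 genes in the lower direction, against 14.3%. Holding the index, limma called 0 of 37 (0.0225% of all genes), with 4 at an unadjusted p under 0.05 (4.53% of all genes), and the median difference was 0.20, against 1.74 without the index. Both vehicle arrays were exceeded by 35 of the 37 genes in rapamycin 1 (27.3% of all genes), by 32 in rapamycin 2 (32.0%) and by 20 in rapamycin 3 (29.0%). In the other drug groups the counts were 35 in tamoxifen 1 (28.9%), 10 in tamoxifen 2 (28.2%) and 35 in each combination array (28.5% in both).

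Slurp1, a secreted Ly6-family protein that regulates keratinocytes, had the smallest p among them. It was at 9.65 and 7.94 with tamoxifen, 9.95, 9.09 and 9.25 with rapamycin, 9.85 and 9.76 with both drugs, and 7.07 and 7.21 with vehicle. Every drug-treated array was above vehicle, and rapamycin 3 exceeded the vehicle mean by 2.11 where the other members exceeded it by at most 1.03. Slurp1 differed from vehicle, holding the index, by 1.69 ± 0.31 with rapamycin (limma, adjusted p = 0.302) and by 1.17 ± 0.32 with tamoxifen (adjusted p = 0.176). Without the index the rapamycin difference was 2.29 ± 0.44 (adjusted p = 0.234), and on leaving out either tamoxifen array Slurp1 was called. Sprr1a differed from vehicle by 0.62 ± 0.22 with rapamycin and the index held (adjusted p = 0.986).

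The combination against vehicle set 2 arrays of high index against 2 of low index. Slurp1 rose by 2.67 ± 0.48 (limma, adjusted p = 0.0391), the single call among the 37 genes, against 1.15% of all genes. An unadjusted p under 0.05 was found for 23 of 37, against 13.7% of all genes. The groups did not overlap for 35 of 37 genes, all higher in the combination, against 19.3% of all genes in that direction (0 were lower, against 24.8%), and the median difference was 2.56, beside -0.03 over all genes. Dsc2 and Dsp were the 2 that overlapped. Once the index was held, 0 of 37 genes were called by limma, against 0.0541% of all genes, with 2 at an unadjusted p under 0.05 (6.54% of all genes), and the median difference was 0.12. Slurp1 then differed by 1.72 ± 0.39 (adjusted p = 0.210), Sprr1a by 0.69 ± 0.27 (adjusted p = 0.653) and Krtdap by 1.05 ± 0.50 (adjusted p = 0.820). The index was 7.38 and 7.53 in the combination and 5.13 and 4.87 in vehicle, with no overlap and little spread within either group. The values with the index held thus rest mainly on the relation seen in the tamoxifen and rapamycin arrays. Drug and index cannot be told apart in these 4 arrays. When limma was given only the 4 arrays compared, which leaves out the groups that differ within themselves, 24 of 37 genes were called, against 1.52% of all genes in that fit. In the fit of all 4 groups Slurp1 was not called on leaving out either vehicle array, any rapamycin array or either combination array.

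The combination was also set against each drug alone. Against rapamycin 0 of 37 genes were called by limma, where 2.45% of all genes were, with 1 at an unadjusted p under 0.05 (13.9% of all genes). Under the fit with the index, 0 of 37 were called, where 1.87% of all genes were, with 2 at an unadjusted p under 0.05 (13.5%). The groups did not overlap for Pkp3 and Ly6d, both higher in the combination, against 18.7% of all genes higher and 20.4% lower. Sprr1a differed there by 0.07 ± 0.20 with the index held (adjusted p = 0.930), less than its standard error. Against tamoxifen limma called 0 of 37 genes and 0% of all genes, with none of the 37 at an unadjusted p under 0.05 (5.67% of all genes). Holding the index gave 0 called and 3 at an unadjusted p under 0.05 (3.88% of all genes), namely Sprr1a, Calml3 and Krt16. Groups did not overlap for Krt15, Slurp1 and Calml3, higher in the combination (16.1% of all genes), and for Dsp and Sprr1a, lower (20.3%). Sprr1a was lower on both combination arrays than on both tamoxifen arrays, by -0.48 ± 0.31 (adjusted p = 0.814) and, with the index held, by -0.77 ± 0.22 (adjusted p = 0.999). The interaction of the drugs called 0 of 37 genes and 0% of all genes in limma, with 1 of the 37 at an unadjusted p under 0.05 (2.83% of all genes), and with the index held 0 were called and 3 had an unadjusted p under 0.05 (2.94%). These comparisons share arrays.

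The separated stomach cells gave a reading of the members in parietal cells and in the rest. The 2 arrays had medians of 3.67 (parietal cells) and 3.68 (other cells) over all probe sets, below the 4.95 to 5.09 of the whole stomachs, so they were compared only with each other. Of the 37 members, 4 were at least 2 log2 units lower in parietal cells, against 2.05% of all genes, and none was 2 higher, against 1.30%. They were Serpinb5, a tumour-suppressing serpin gene (2.85 in parietal and 6.09 in other cells), Krt15 (3.56 and 6.58), Krt6a (2.21 and 4.87) and Slurp1 (4.92 and 7.11). Sprr1a was at 11.12 in parietal and 10.52 in other cells, and Ly6d at 8.02 and 6.19. Krt4, Krt13, Krt1 and Sprr3, the members of large spread, stood at 3.29, 4.76, 4.12 and 2.44 in parietal cells, against 3.88, 4.84, 3.88 and 2.15 in other cells. Dsp, Dsc2 and Perp had 8.49, 7.49 and 7.30 in parietal cells, against 8.98, 9.11 and 8.79 in other cells. The median difference of the 37 members between the fractions was -0.08, beside 0.03 over all genes. Their median level was 4.12 in parietal and 4.51 in other cells, beside medians over all genes of 3.97 and 3.99. Signal over background is not known there, so a small difference need not mean similar expression. With 1 array each no test was made. At a limit of 1 log2 unit 9 members differed, in either direction, and the share of all genes at that limit was not counted.

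**Figure D4:**
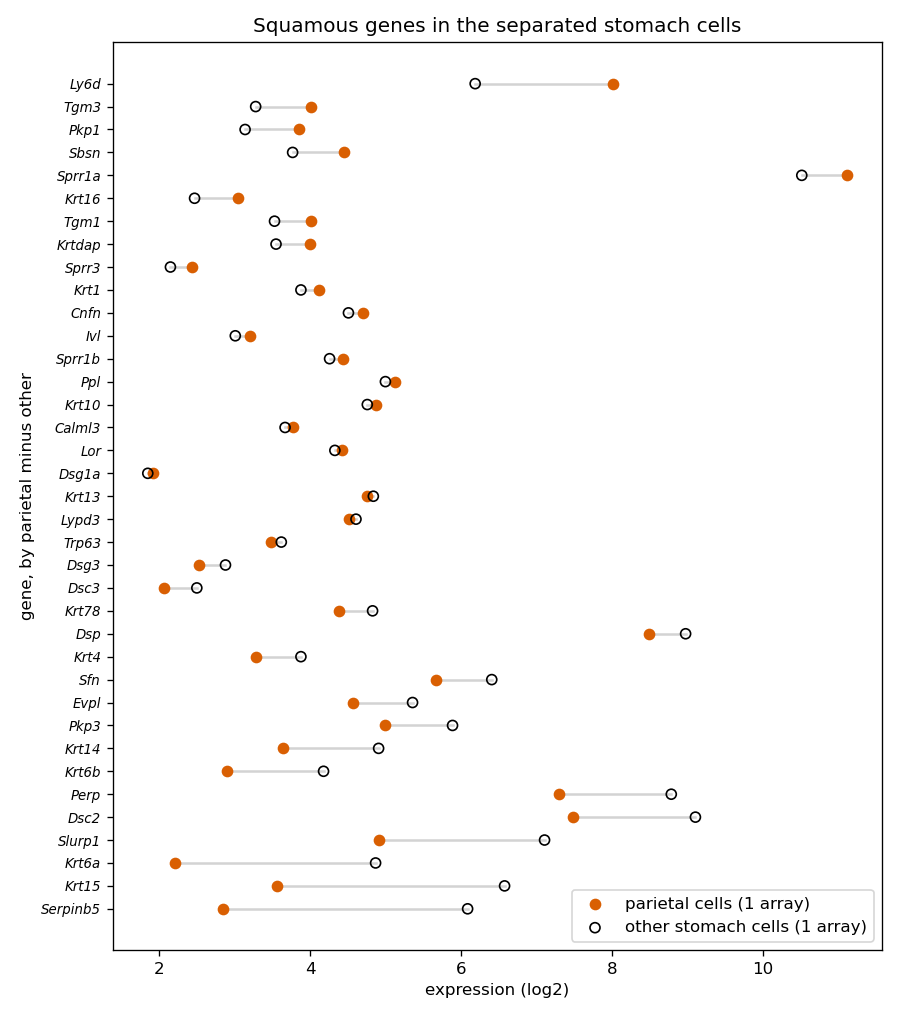
Expression (log2, x axis) of the 37 genes in isolated parietal cells (filled points) and in the other stomach cells (open points), 1 array each, ordered by the difference. Ly6d (8.02 against 6.19) is at the top and Serpinb5 (2.85 against 6.09) at the bottom, and Sprr1a is the member of highest value in both.

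Other genes of the epidermal differentiation complex, the chromosome region of the envelope genes, were read from a list of 28 measured genes that are not members. In limma 0 of 28 were called for tamoxifen, rapamycin or the combination against vehicle, with 2, 5 and 12 at an unadjusted p under 0.05 (10.9%, 8.91% and 13.7% of all genes) and median differences of 0.80, 0.52 and 1.11. For the combination against rapamycin 1 was lower, Flg2 by -0.65 ± 0.13 (adjusted p = 0.0366), where 2.45% of all genes were called. That call was not made with the index held. Sprr2b, the member of highest mean in that list, was at 10.64 and 11.06 with tamoxifen, 10.46, 10.05 and 10.68 with rapamycin, 10.18 and 10.33 with both drugs, and 11 and 11.56 with vehicle. Every rapamycin and combination array was below both vehicle arrays for Sprr2b, which is thus unlike Sprr1a. Sprr2e, chosen after its values were seen, had 7.10 and 4.13 with tamoxifen, 3.92, 4.09 and 4.31 with rapamycin, 4.89 and 6.08 with both drugs, and 4.28 and 4.5 with vehicle, so that rapamycin 1, of the highest index, was the lowest array.

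Markers of other tissues were read to see what else moved with the squamous genes. The mean of 12 hair follicle genes lay between 4.16 and 4.49 on the 9 arrays. The mean of 11 striated muscle genes, as in the mouse oesophagus wall, was 6.06 in combination 1 and between 5.01 and 5.24 in the other 8, with Acta1 at 9.15 in combination 1 and between 6.12 and 6.66 elsewhere. The mean of 8 intestinal genes lay between 5.39 and 5.63. The mean of 5 adipose genes was 6.27 and 5.31 with tamoxifen, 7.31, 7.40 and 6.61 with rapamycin, 6.72 and 5.92 with both drugs, and 5.71 and 5.47 with vehicle. The means of the hair follicle and intestinal lists thus varied little, but single genes varied more, with Vil1 and Alpi, genes of intestinal absorptive cells, spread over 1.42 and 1.47 and highest in tamoxifen 2 (8.69 and 6.59). Limma called 0 genes of the hair follicle, muscle and intestinal lists with or without the index. Against vehicle, 1 intestinal gene had an unadjusted p under 0.05 for tamoxifen and 1 hair follicle gene for rapamycin, in both fits. For muscle, 2 of 11 genes were under that limit in the combination against vehicle (13.7% of all genes). So were 2 when the reference was rapamycin alone (13.9%) and 2 when it was tamoxifen alone (5.67%). With the index held the muscle counts were 2, 1 and 3 (6.54%, 13.5% and 3.88%), and the interaction had 1 intestinal gene (2.94%). Of the 5 adipose genes, 5 had an unadjusted p under 0.05 for rapamycin against vehicle (8.91% of all genes) and 0 were called (0.0496%). Retn fell in the combination against rapamycin with the index held, by -1.84 ± 0.34 (limma, adjusted p = 0.0362), where 1.87% of all genes were called. Of 10 glandular genes, 2 fell with tamoxifen, Cblif by -1.60 ± 0.13 (adjusted p = 0.00205) and Muc6 by -1.92 ± 0.34 (adjusted p = 0.0313), where limma called 1.72% of all genes. In the combination, Cblif fell against vehicle by -1.16 ± 0.13 (limma, adjusted p = 0.00827), where 1.15% of all genes were called. Cblif and Atp4b fell in the combination against rapamycin, where 2.45% of all genes were called. With the index in the fit, Muc6, Atp4b and the fall of Cblif against vehicle in the combination were not called. Their part in the results above was not tested.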

How the data were processed

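The authors deposited 1 table of log2 expression values per probe set, made with RMA in Partek per the submitters' processing notes. The sources used here do not give versions, settings or signal over background, and the number of arrays limits the precision. GEO's platform annotation gave 1 symbol to 23521 of 41345 probe sets, several to 1814 and none to 16010. Probe sets with several symbols were left out, and 1 probe set was kept per gene, the brightest on average over the 9 whole-stomach arrays (22180 genes, no filter on low values). Groups were taken from the sample titles. Limma 3.58.1 in R 4.3.3 fitted 1 mean per whole-stomach group over all genes, with 5 residual degrees of freedom, or 4 with the squamous index (mean of 20 non-member genes) as covariate. That covariate assumes 1 straight log2 relation for all arrays. Calls are Benjamini-Hochberg adjusted p under 0.05 over all genes, and errors are limma standard errors. The fits were tested on simulated data.

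Members and lists were chosen with earlier results of these data known. Values are given array by array for Trp63, Krt13, Krt1, Krt6a, Dsg3, Dsp, Sprr1a, Sprr1b, Sprr3, Lor, Ivl, Tgm1 and Tgm3, for called members, and for the 3 of smallest p against vehicle with the index held. The lists held other squamous, epidermal differentiation complex, hair follicle, striated muscle, glandular, intestinal and adipose genes (94 of 100 measured). Promoter sequences are RefSeq's (GRCm38.p6), present for 19 of 38 genes. Alternatives were scaling, a filter on dim genes, the mean of probe sets, the variance model, replicate number as a block, another index, fewer groups, and each array left out, and, added after seeing the data, a term for vehicle 2 with tamoxifen 2 or leaving both out.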

Additional observations from a re-analysis of the deposited data

Results flagged for a closer look

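Arrays of rapamycin and of the combination moved opposite ways for 2 genes when each was set against the mean of the group without rapamycin. For Sprr1a, all 3 rapamycin arrays were above the vehicle mean (mean difference 0.99) and both combination arrays below the tamoxifen mean (-0.48), an interaction of -1.47 (limma, adjusted p = 1). For Ivl the mean differences were 0.85 and -0.18, an interaction of -1.02 (limma, adjusted p = 1). Both combination arrays (5.87 and 6.17) lay between the tamoxifen arrays (6.98 and 5.41) for Ivl, so these groups overlapped. For Sfn, which encodes 14-3-3 sigma, both tamoxifen arrays were above the vehicle mean (0.24) and both combination arrays below the rapamycin mean (-0.17), an interaction of -0.41 (limma, adjusted p = 1). Combination 1 was at 7.46 for Sfn, above rapamycin 2 and rapamycin 3 (7.41 and 7.39), so the combination and rapamycin groups overlapped. None of these interactions passed the test. The search for such opposite moves covered the 37 genes only. How often all genes show them was not counted, so their number is not a trait of these members. A probe set naming both Krt5 and Krt6a, not used above, was at 10.25 and 5.31 with tamoxifen, 10.10, 8.64 and 4.97 with rapamycin, 9.39 and 9.68 with both drugs, and 4.46 and 4.97 with vehicle, so 5 drug-treated arrays exceeded vehicle by over 1 log2 unit.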

How the results depend on the processing

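For tamoxifen against vehicle, 1 gene (Sprr1a) was called under renewed quantile normalization, median centring, the filter on dim genes, the mean of probe sets and limma with trend and robust fitting, with and without the index. Without the index, with the arrays compared alone or without vehicle 2 and tamoxifen 2 (both changes to that pair were chosen after seeing the data), it was 0, and with a term for that pair it was 2 (Ivl and Sprr1a). Leaving out 1 array gave 0 to 2 genes, and 2 (Ivl and Slurp1) without tamoxifen 2. With the index held it gave 0 to 1, Krt16 being the gene called without vehicle 2, and 0 were called without vehicle 2 and tamoxifen 2 (Sprr1a 0.87, adjusted p = 0.391). For rapamycin against vehicle, leaving out 1 array gave 0 to 1 gene, Slurp1. For the combination against vehicle, 1 gene (Slurp1) became 0 under renewed quantile normalization (adjusted p = 0.0501) or with the pair term, 24 with the arrays compared alone, and 0 to 1 with 1 array left out. With the index held the pair term gave 1 gene, Krt6b, lower. In the other comparisons 0 genes were called under every alternative run. The share of all genes called was counted for only 1 alternative, the arrays compared alone for the combination against vehicle (1.52%). The other counts of members here have no such share beside them, so whether they exceed it is not known. Members at least 1 log2 unit apart between the fractions, in either direction, numbered 9 in place of 4 at 2 units. The share of all genes at 1 unit was not counted.

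With replicate number as a block and the index held, 0 genes were called for tamoxifen against vehicle (Sprr1a 1.60, adjusted p = 0.132), and the replicate block changed no other count. Deviations of same-numbered arrays correlated at 0.56 between vehicle and tamoxifen, where vehicle 2 and tamoxifen 2 also hold many equal values. With 2 arrays in each of these groups, that is 1 value for both numbers. Tamoxifen 1 and rapamycin 1 correlated at 0.41, and the remaining pairs ran from -0.11 to 0.04. The numbers were therefore not taken as pairing all groups. Sprr1a in the combination against rapamycin with the index held (0.07) turned to -0.01 under quantile normalization, 0.00 under the replicate block and -0.05 without vehicle 2 and tamoxifen 2, and ran from -0.05 to 0.33 with 1 array left out. Slurp1 there (0.03) ran from -0.22 to 0.22 likewise. The causes were not tested.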
